A study of Mus musculus with 2 samples.

Results

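Rtp1, Rtp2, Reep1 and Ric8b are 4 of the 31053 genes counted in a single-cell RNA-seq study of mouse olfactory epithelium, chosen by their symbols because all have been studied as partners of odorant receptors. The cells came from the epithelium of a male C57BL/6 mouse in which a nostril had been closed on postnatal day 14, and the closed (left) and open (right) sides were each made into a library on postnatal day 28. Dead cells were removed from frozen dissociated cells before the Chromium 3' v3 preparation, which tags each captured RNA with a unique molecular identifier (UMI). Cell barcodes carry the suffix 1 or 2, and the sources used here do not tie a suffix to a side, so the libraries are called library 2 and library 1, with no side assigned. With 1 library of each kind there is no replicate, and every interval below is a 95% interval that covers counting error only.

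In the olfactory sensory neuron (OSN), odorant receptors must fold in the endoplasmic reticulum (ER) and travel to the cilia, a step at which most of them stall when made in other cell types. The receptor transporting proteins encoded by Rtp1 and its paralog Rtp2 bind receptors and raise their amount at the cell surface. Reep1 encodes a hairpin protein that shapes ER membranes and was found together with the Rtp genes as an enhancer of receptor expression. Ric8b encodes a chaperone and exchange factor for G alpha olf (the product of Gnal), the G protein subunit through which odorant receptors activate adenylyl cyclase 3 (Adcy3).

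After filtering, library 2 kept 5266 cells (median 5139.5 UMIs a cell) and library 1 kept 3032 (median 5528), and 6 barcode sequences occurred in both sets. Neuronal cells were grouped without using the 4 genes. INP-like cells (immediate neuronal precursors, 201 cells) expressed Neurod1, Neurog1 and Nhlh1, immature OSN-like cells (479) Gap43 and Gng8, and mature OSN-like cells (1081) Omp, Cnga2 and Adcy3. The lineage also held 4 clusters that stayed unnamed: cluster 6 (329 cells), with haemoglobin genes among its leaders beside 7 markers of dividing globose basal cells such as Top2a and Mki67, cluster 22 (141), with 4 of those markers, cluster 12 (247), whose leading genes included Crabp1 and Tex15, and cluster 9 (274), led by Calb2 and with both Gap43 and Gng13 as markers. Cluster 22 was also led by Neurod1, at 1586 CPM against 1446 in INP-like cells, and had 238 CPM of Neurog1 against 226. Cluster 8 (297 cells), with neuronal and sustentacular genes among its leaders and a median of 14196 UMIs, was set aside. Mature OSN-like cells were 2 clusters of different library make-up: cluster 1 held 493 cells of library 2 and 118 of library 1, cluster 4 held 111 of library 2 and 359 of library 1. Levels are given as UMIs of a gene per 1000000 UMIs of a group of cells (CPM). A 3' UMI count does not grow with transcript length, but capture can differ between genes, so only differences within a gene are read.

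The start of each gene was looked up to show which regulatory letters the 4 genes could share. On mm10, Rtp1 (ENSMUSG00000033383) lies on the plus strand at chr16:23429133-23433960 and Rtp2 (ENSMUSG00000047531) on the minus strand at chr16:23925548-23932394. Both are protein-coding genes of 2 exons, 491587 bases apart, with Masp1, Rtp4 and Sst between them. Reep1 (ENSMUSG00000052852) spans 7 exons on the plus strand at chr6:71707561-71810710, and Ric8b (ENSMUSG00000035620) spans 10 exons on the plus strand at chr10:84917616-85018337. RefSeq promoter entries (GRCm38.p6, the patched form of mm10) were found for 3 of the 4 members, all but Rtp1. The 250 bases upstream of the RefSeq start of Rtp2 and of Ric8b are shown with the 130 bases for Reep1 that lie before its first GENCODE exon. The Rtp2 window lies inside the GENCODE gene span, which starts further upstream, but holds no exon base. Capitals mark CCCNNGGG, a palindromic core of sites bound by the Olf/Ebf factors.
Rtp2, chr16:23930795-23931044, minus strand: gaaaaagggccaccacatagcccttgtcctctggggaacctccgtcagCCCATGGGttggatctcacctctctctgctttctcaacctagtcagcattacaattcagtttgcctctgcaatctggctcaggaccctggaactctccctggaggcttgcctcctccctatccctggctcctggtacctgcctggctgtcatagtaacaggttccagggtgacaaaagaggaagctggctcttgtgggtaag
Reep1, chr6:71707431-71707560, plus strand: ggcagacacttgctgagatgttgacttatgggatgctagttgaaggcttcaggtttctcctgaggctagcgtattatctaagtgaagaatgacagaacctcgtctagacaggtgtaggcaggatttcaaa
Ric8b, chr10:84917363-84917612, plus strand: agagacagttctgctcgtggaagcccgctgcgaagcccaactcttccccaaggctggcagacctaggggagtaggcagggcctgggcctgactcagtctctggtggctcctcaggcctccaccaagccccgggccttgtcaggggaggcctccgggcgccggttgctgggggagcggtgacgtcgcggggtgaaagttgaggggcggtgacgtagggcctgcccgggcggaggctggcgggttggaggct
CCCNNGGG occurred in the Rtp2 window at -202, in the exonic part of the Reep1 window (not printed) at -65, and nowhere in the Ric8b window, against 11.8% of all 32851 promoter windows of that length. TAATTA, a homeodomain-type core, was in none of the 3 windows, against 4.84% of all. The Ric8b window had 16 CpG and 69.2% G+C, the Rtp2 window 1 CpG and 54.8% G+C, and the median window 6 CpG and 52.4% G+C.

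Rtp1, the receptor transporter, was higher in each later group of the lineage from INP-like cells on, and at 4.50 to 5.31 CPM before them. Cluster 6 had 4.50 CPM, cluster 22 had 5.31, INP-like cells had 10.0, cluster 12 had 38.2, the immature class had 187, cluster 9 had 423 and the mature class had 674. In mature cells library 2 had 632 CPM and library 1 had 725, and in immature cells library 2 had 204 and library 1 had 155. The ranges of the libraries in the mature and immature classes did not overlap. Mature over immature was 1.84 on the log2(CPM + 1) scale (1.71 to 1.99), with 1.63 within library 2 and 2.22 within library 1. Immature over INP-like cells was 4.10 (3.33 to 5.30), and 2.34 when no cell was filtered out. In single cells, 93.1% of mature and 55.1% of immature OSN-like cells held a Rtp1 UMI, at medians of 5046 and 4911 UMIs per cell. Of sustentacular-like cells, which are supporting cells, 5.15% held a Rtp1 UMI, at a median of 6230 UMIs. The source of these UMIs was not tested.

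Rtp2, its paralog on the same chromosome, followed Rtp1, with a larger share of the pair in cluster 12 than in mature cells. Its level was 5.03 CPM for cluster 6, 3.80 for cluster 22, 18 for INP-like cells, 65.4 for cluster 12, 155 for the immature class, 345 for cluster 9 and 495 for the mature class. In mature cells library 2 had 493 CPM and library 1 had 496, and in immature cells library 2 had 169 and library 1 had 126. Mature over immature was 1.67 (1.52 to 1.84), and immature over INP-like 3.03 (2.42 to 3.87). That last difference ranged between 1.40 (no cell filter) and 3.94 (at most 5% mitochondrial UMIs) over the alternatives run. A Rtp2 UMI was found in 88.3% of mature, 50.7% of immature and 3.95% of sustentacular-like cells.

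The make-up of the pair differed along the lineage. Of all Rtp1 and Rtp2 UMIs, Rtp2 contributed 63.1% in cluster 12 (53.9 to 71.7, exact binomial interval, 122 UMIs), 45.2% in the immature class (41.8 to 48.7), 44.9% in cluster 9 (42.1 to 47.8) and 42.3% in the mature class (41.1 to 43.6). In cluster 12 the share was 66.0% in library 2 and 53.6% in library 1, where only 28 UMIs were counted (33.9 to 72.5). Groups before cluster 12 had few UMIs of the pair. Rtp2 contributed 64.3% in INP-like cells (44.1 to 81.4), 52.8% in cluster 6 (35.5 to 69.6) and 41.7% in cluster 22 (15.2 to 72.3). The intervals of clusters 6 and 22 held the mature share. Set against its own mature level, Rtp2 stood at 13.2% in cluster 12 (10.4 to 16.6) and Rtp1 at 5.67% (4.13 to 7.61). After each cell was thinned to 2000 UMIs, a Rtp2 UMI was found in 16.5% and a Rtp1 UMI in 4.66% of 236 cluster 12 cells, whereas both genes stood at 28.5% of 452 immature cells. Reads that match both paralogs could be split or dropped by the counting, and this was not tested.

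Reep1, the ER-shaping member, was also higher in mature cells, but its early values rested on few counts. Cluster 6 had 3.70 CPM (14 UMIs), INP-like cells 2.00 (2 UMIs), cluster 12 had 5.95 (7 UMIs), the immature class 23.5, cluster 9 had 39.7 and the mature class 80.9. Cluster 22 held 0 UMIs of Reep1 among 1317503, which allows up to 2.28 CPM (3 counts). In mature cells library 2 had 80.5 CPM and library 1 had 81.3, so the libraries were level there. Mature over immature was 1.74 (1.39 to 2.21), with 2.31 within library 2, 1.03 within library 1 and 1.12 without a cell filter. A Reep1 UMI was found in 33.8% of mature and 6.89% of immature cells, against 0.995% of INP-like cells at a similar median depth (4950 UMIs). Thinned to 2000 UMIs, the shares were 15.8% in the mature and 3.32% in the immature class. Sustentacular-like cells, which carried Reep1 themselves as described below, cannot serve as its background.

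The immature value of Reep1 turned on 3 cells of library 1, singled out after the values were seen. They held 42279, 46750 and 22440 UMIs in all, and 12, 12 and 3 UMIs of Reep1, which is 27 of the 57 in the class. They had Gap43 and Vip UMIs (257, 349 and 47 of Vip) but no UMI of Omp, Gng13 or Rtp2. They held 0, 2 and 0 UMIs of Gng8 and 0, 0 and 5 of Ebf1, where the class had 1684 and 2694 CPM. Of Rtp1 they held 0, 1 and 0 UMIs. Without these 3 cells, immature OSN-like cells had 12.9 CPM of Reep1 (8.73 to 18.5), 15.5 in library 2 and 7.11 in library 1. Mature over immature then became 2.55 (2.11 to 3.23). What these cells are was not tested.

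Ric8b, the G alpha olf chaperone, had its largest steps after the immature class. Its CPM was 10.9 for cluster 6, 24.3 for cluster 22, 23 for INP-like cells, 40.8 for cluster 12, 69.5 for the immature class, 247 for cluster 9 and 610 for the mature class. The value in cluster 6 was no higher than that of sustentacular-like cells (14.5 CPM), whose markers summed to 2557 CPM in cluster 6. The source of the Ric8b UMIs in cluster 6 was not tested. In mature cells library 2 had 591 CPM and library 1 had 632, and in immature cells library 2 had 75.5 and library 1 had 57.7. Mature over immature was 3.11 (2.91 to 3.36) and 3.78 with marker gates in place of clusters. The main value has an interval that lies above those of the other 3 members (highest bound 2.21). Without the 3 cells just described, the interval of Reep1 reached 3.23 and overlapped that of Ric8b. Immature over INP-like was 1.56 (0.96 to 2.29), an interval below those of Rtp1 and Rtp2. Immature cells thus stood at 11.4% of the mature Ric8b level (9.71 to 13.3), against 27.8% for Rtp1 (25.1 to 30.6) and 31.3% for Rtp2 (28 to 34.8). Reep1 stood at 29.0% (21.6 to 38.3) with the 3 cells included. Gnal, which encodes the partner of Ric8b, stood at 9.38% (8.51 to 10.3), an interval that overlapped that of Ric8b. In clusters 9 and 12 the intervals of these genes did not overlap. Cluster 9 stood at 56.6% for Gnal (53.8 to 59.6) and at 40.5% for Ric8b (36.4 to 45.05). Cluster 12 stood at 3.17% for Gnal (2.48 to 3.996) and at 6.69% for Ric8b (4.92 to 8.89). Of other genes of the G alpha olf complex, immature cells stood at 16.1% for Gng13, 54.2% for Gnb1 and 4.59% for Adcy3.

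**Figure D1:**
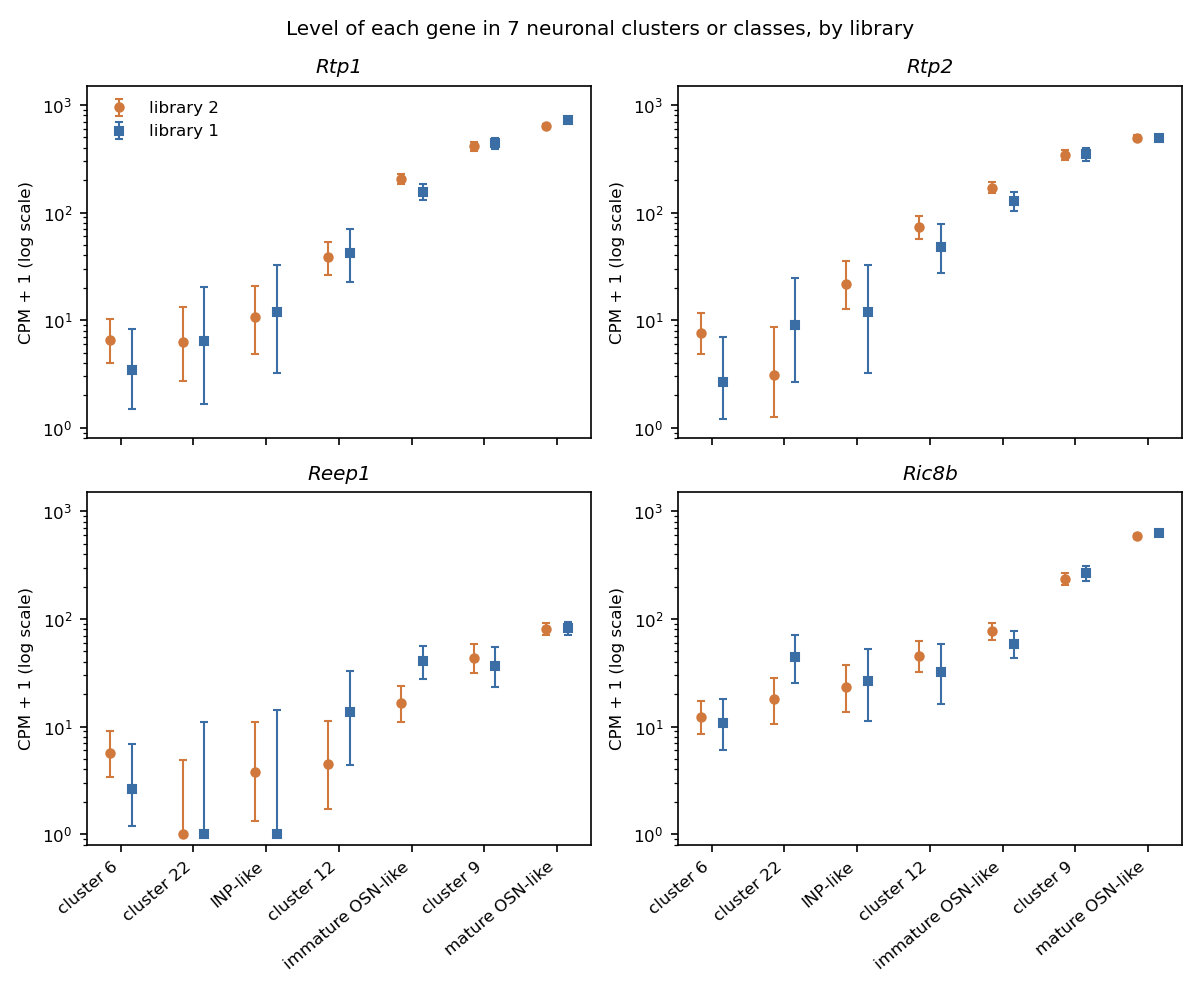
Level of each gene (CPM + 1, log axis) in 7 neuronal groups in lineage order, library 2 left of library 1, with bars for the 95% counting interval. Rtp1 and Rtp2 climb from cluster 12 on, Ric8b is at 610 CPM in mature and 69.5 CPM in immature cells, and Reep1 is at 0 in cluster 22 of both libraries.

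All 4 members were at least 2-fold higher in the mature than in the immature class, as were 12.7% of the 9861 genes at 10 CPM or more in either class. All 4 were also at least 2-fold higher in immature OSN-like than in INP-like cells, as were 24.0% of 9706 genes. The first step differed between members: cluster 12 over INP-like cells was 1.83 for Rtp1, 1.81 for Rtp2, 1.21 for Reep1 with an interval that holds 0 (-0.82 to 4.87), and 0.80 for Ric8b, where 12.5% of genes were 2-fold higher. The immature class over cluster 12 came to 2.26 for Rtp1 (1.85 to 2.77), 1.23 for Rtp2, 1.82 for Reep1 and 0.76 for Ric8b (0.30 to 1.26). Here 3 of the 4 members and 17.1% of genes were 2-fold higher.

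Markers of sustentacular cells were present in the groups from INP-like to mature, at sums that were lower in cluster 9 and in the mature class than in the 3 groups before them. Summed, they had 369 CPM in the INP-like class, 416 for cluster 12, 339 for the immature class, 255 for cluster 9 and 295 for the mature class, with 6 or 7 of 9 markers at 10 CPM or more. In mature cells the sum was 380 in library 2 and 194 in library 1. Erythroid markers (5) summed to 389 CPM in mature and 7.0 CPM in immature cells, with 713 in library 2 and 1.19 in library 1 among mature cells. Neutrophil markers (8) summed to 540 CPM in mature and 110 CPM in immature cells, with 331 in library 2 and 790 in library 1 among mature cells. Gland markers (10) summed to 142 CPM in mature and 203 CPM in immature cells, with 248 in library 2 and 15.5 in library 1 among mature cells. The part of these markers in the values of the 4 genes was not tested.

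Ranking 2423 neuronal cells along the first principal component, again without the 4 genes and without Olfr genes, gave a finer order in 10 bins. Rtp2 reached 50% of its highest bin in bin 5, together with the summed Olfr genes, Rtp1 and Reep1 in bin 6, and Ric8b in bin 7, together with Omp. Gap43, the growth cone protein of immature neurons, peaked in bin 4. From the first to the last bin, Rtp1 ran between 4.97 and 798 CPM, Rtp2 between 8.69 and 559, Reep1 between 0.62 and 102, and Ric8b between 22.4 and 928. Ric8b was still higher in bin 10 than in bin 9 (928 against 655 CPM). In library 2 Rtp2 reached 50% in bin 6 and in library 1 in bin 5, while Rtp1 (bin 6) and Ric8b (bin 7) had the same bin in both. Reep1 differed most, with bin 6 in library 2 and bin 4 in library 1. The 3 cells rich in Reep1 all lay in bin 4, which had 36.1 CPM with them and 16.4 without them.

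**Figure D2:**
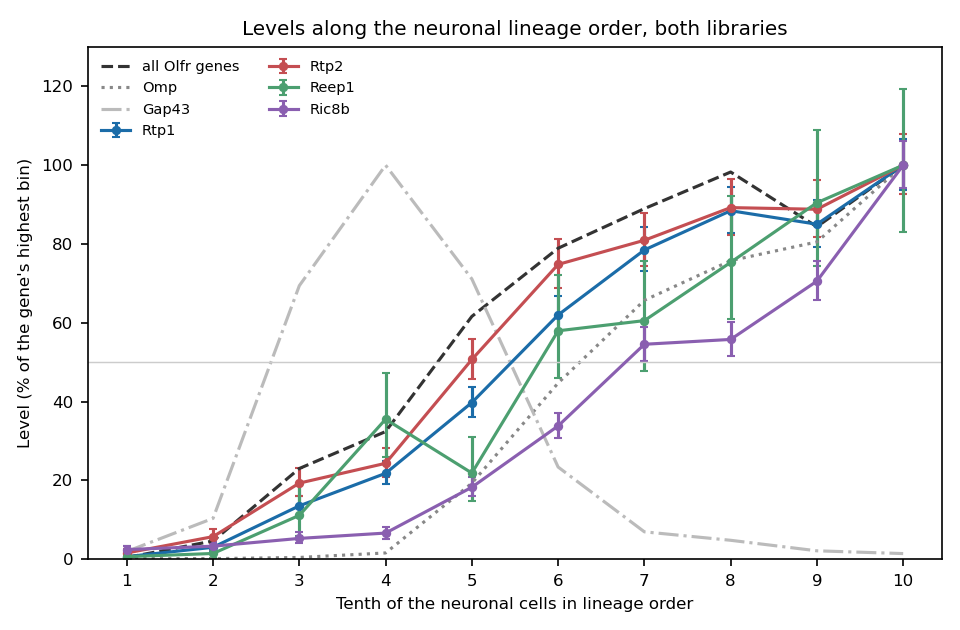
Level of each member, of all Olfr genes together, of Omp and of Gap43 in 10 bins of neuronal cells in lineage order (both libraries), as a percentage of the gene's own highest bin, with 95% counting intervals for the members. Rtp2 crosses 50% in bin 5, Rtp1 and Reep1 in bin 6 and Ric8b in bin 7, and the raised Reep1 point in bin 4 rests on 3 cells.

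Other Reep genes did not share this course, and the other Rtp genes listed were too low to be compared. Of the 7 other Rtp and Reep genes listed, 5 reached 10 CPM in mature or immature cells, and 0 of them were 2-fold higher and 3 were 2-fold lower in mature cells (median log2 difference -1.57, against -0.12 over all genes, of which 13.8% were 2-fold lower). Reep5 had 5.61 CPM in mature and 102 CPM in immature cells, but 14.4 CPM in cluster 12 and 17.3 CPM in cluster 9. Reep2 had 0.18 CPM in mature and 11.5 CPM in immature cells, with 1.70 CPM in cluster 12 and 0.64 CPM in cluster 9. Reep4 had 11.9 CPM in cluster 12, 16.5 in immature cells, 7.04 in cluster 9 and 4.89 in mature cells. The part of the 3 immature cells rich in Reep1 in these values was not tested. Reep3 had 37.8 CPM in mature and 37.9 CPM in immature cells. Rtp3 had no UMI in either class.

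Genes of the G alpha olf complex split by subunit. Of 7 genes, Gnal, Gng13 and Adcy3 were 2-fold higher and Gnas, Gng8 and Ric8a 2-fold lower in mature than in immature cells, where 12.7% of all genes were higher and 13.8% lower. Gnal, Gng13, Adcy3 and Gng8 were among the markers that named the classes, so their direction is in part given by the naming. Gnal had 1930 CPM in mature and 181 CPM in immature cells, whereas Gnas, which encodes the widely expressed G alpha s, had 27.5 and 467 CPM. The chaperones had the same opposite directions: Ric8b had 610 CPM in mature and 69.5 CPM in immature cells, and Ric8a, its paralog for other G alpha subunits, 28.6 and 60.9 CPM. Adcy3 had 699 CPM in mature and 32.1 CPM in immature cells, with 104 CPM in cluster 9.

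Genes of the general ER folding machinery were higher in the immature class than in cluster 12. There, 12 of 16 ER folding genes were 2-fold higher and all 16 had a positive log2 difference, with a median of 1.37 against 0.24 over all 9513 genes, of which 17.1% were 2-fold higher. Hspa5, the main ER chaperone, had 286 CPM in immature cells and 101 CPM in cluster 12, and Herpud1, a gene of ER-associated degradation, had 410 and 28 CPM. Groups before cluster 12 were not all as low as it. Hsp90b1 had 615 CPM in cluster 22, 249 in INP-like cells, 124 in cluster 12 and 492 in immature cells. Calr had 319, 263, 115 and 198 CPM in the same order. In INP-like cells Hspa5 had 137 CPM and Herpud1 37.0 CPM. In mature over immature cells the same list had 0 genes 2-fold higher and 2 lower (Pdia6 and Sdf2l1), with a median of -0.42, where 12.7% of all genes were higher and 13.8% lower and the median was -0.12. Of 15 ER export genes, 5 were 2-fold higher in immature cells than in cluster 12 (17.1% of all genes), and Sec24d, a coat protein of transport vesicles, was the 1 gene 2-fold higher in mature than in immature cells (46.0 against 17.3 CPM).

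The ER-shaping genes that work beside Reep1 showed no common direction. Of 9 such genes, 0 were 2-fold higher and 2 (Atl1 and Spast) 2-fold lower in mature than in immature cells. Of all genes, 12.7% were higher and 13.8% lower. Atl1 had 6.80 CPM in cluster 12, 32.1 in immature cells, 8.96 in cluster 9 and 9.59 in mature cells. Spast had 79.0, 109, 58.3 and 47.1 CPM in the same order. In the receptor-choice feedback list, which holds the stress sensor Eif2ak3 and its target Atf5, all 9 genes had a negative log2 difference in mature over immature cells (median -0.65, against -0.12 over all genes), and 2 of them, Kdm1a and Ldb1, were 2-fold lower. Ddit3 and Trib3, targets of the same stress pathway, were 2-fold higher in immature cells than in cluster 12, as were 17.1% of all genes. Ddit3 had 199.98 against 17.8 CPM and Trib3 79.0 against 3.40 CPM. Of the same list, Lhx2 (527 against 1969 CPM), Ldb1 (120 against 273) and Emx2 (326 against 673) were lower. Kdm1a and Ebf1 were also lower, and Eif2ak3 and Atf5 higher, each by less than 2-fold. Of the 5 other receptor partners listed, 2 were measured, and Arrb2 was 2-fold lower in mature cells (32.8 against 81.9 CPM). Hspa8 had 842 CPM in mature and 676 CPM in immature cells.

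The amount of receptor RNA in a cell was set against the 4 genes after thinning each cell to 2000 UMIs, with levels as CPM of the UMIs outside Olfr. Among mature OSN-like cells, those with 0 Olfr UMIs (48 cells) had 719 CPM of Rtp1 (559 to 910), and those with 40 or more (119 cells) had 770 (661 to 892). Over the 6 bins of Olfr UMIs, Rtp2 lay between 457 and 532, Reep1 between 73.3 and 125 and Ric8b between 531 and 685 CPM. Spearman's rho with Olfr UMIs over 1062 mature cells was 0.07 for Rtp1, 0.00 for Rtp2, 0.00 for Reep1 and 0.07 for Ric8b. In counts this sparse such values are no finding. In immature cells Rtp1 had 156 CPM in the 64 cells with 0 Olfr UMIs and 364 in the 39 cells with 20 to 39, and Rtp2 had 180 and 195.

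**Figure D3:**
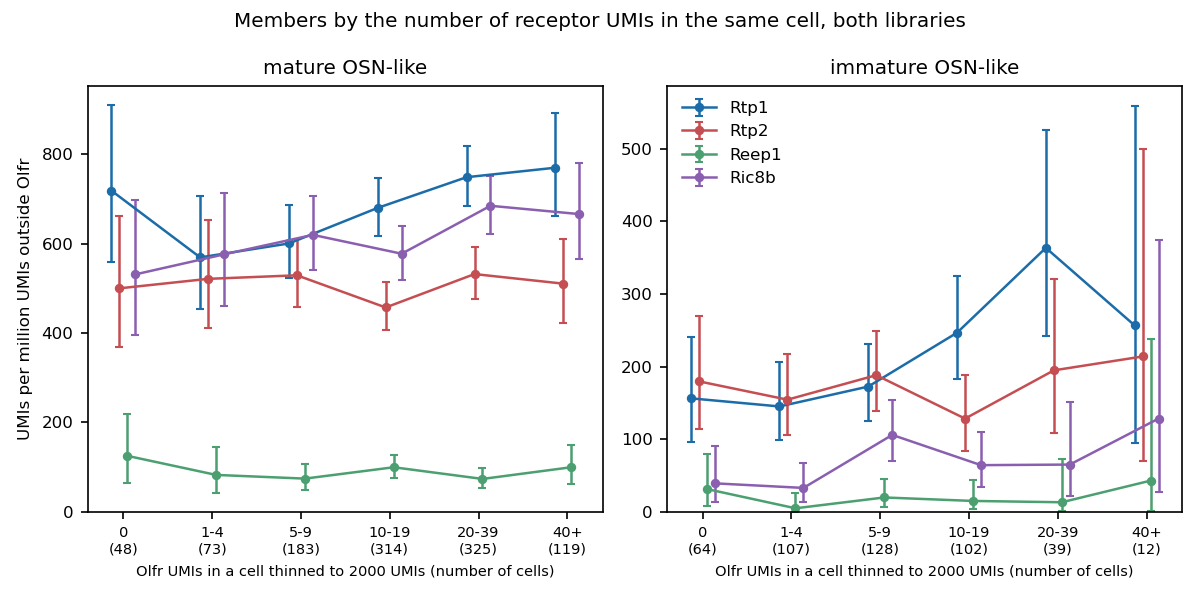
CPM of each member among UMIs outside Olfr, by the number of Olfr UMIs in the same cell after thinning to 2000 UMIs (number of cells below each bin), for mature (left) and immature (right) OSN-like cells of both libraries, with 95% counting intervals. In mature cells the intervals of Rtp1 at 0 Olfr UMIs (559 to 910) and at 40 or more (661 to 892) overlap.

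In cluster 12, where receptor RNA first appears, Rtp2 was detected in cells with and without an Olfr UMI after thinning. Thinning hides some receptor RNA: 81.4% of cluster 12 cells held an Olfr UMI before it and 68.6% after it. Of the 74 cells with no Olfr UMI after thinning, 16.2% held a Rtp2 UMI (8.67 to 26.6) and 1.35% a Rtp1 UMI (0.03 to 7.30). These were 12 cells and 1 cell. Of the 99 cells with 2 or more receptor genes, 19.2% held a Rtp2 UMI and 8.08% a Rtp1 UMI. Mature cells with 2 or more receptor genes (109 after thinning) had 624 CPM of Rtp1, and the 905 with 1 receptor gene had 690, with overlapping intervals (523 to 738 and 652 to 729).

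Within a class the members were detected in the same cells about as often as their separate shares give. Of 1062 thinned mature cells, 45% held both Rtp1 and Rtp2, where the product of the shares is 44.9%. Both Rtp2 and Ric8b were held by 44.6%, where the product is 43.2%. Ric8b stood out in cluster 9, where 38.0% of cells had no UMI of it and a single common rate would leave 27.4%. That gap was seen in library 2 (38.5% against 30.2%) and in library 1 (37.1% against 23.2%).

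Mature cells were then split by zone marker and by receptor class. Nqo1 marks dorsal and Ncam2 ventral and lateral zones of the epithelium. Reep1 had 119 CPM in 167 cells with Nqo1 and no Ncam2 and 74.5 CPM in 352 cells with Ncam2 and no Nqo1, a log2 difference of 0.67 (0.29 to 1.07). It was 0.68 in library 2 and 0.60 in library 1, where the interval held 0 (-0.07 to 1.26). The other 3 members had differences of -0.01 (Rtp1), -0.05 (Rtp2) and -0.14 (Ric8b), each with an interval that held 0. None of the 4 reached 2-fold, and 8.98% of 9305 genes did in either direction.

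Class I receptors, the family of the dorsal zone taken here as Olfr543 to Olfr692, led 76 of the 1020 mature cells with an assigned receptor. Reep1 had 122 CPM in these cells and 77.3 CPM in the 944 cells with another receptor (log2 difference 0.66, 0.19 to 1.1). Ric8b had 511 and 619 CPM (-0.28, -0.49 to -0.07). By library, the Reep1 difference was 0.84 in library 2 (0.26 to 1.39) and 0.36 in library 1 (-0.51 to 1.12). That of Ric8b was -0.31 in library 2 (-0.60 to -0.04) and -0.21 in library 1 (-0.56 to 0.11). In library 1, with 29 class I cells, both intervals held 0. Against 98 dorsal (Nqo1 and no Ncam2) cells with another receptor, class I cells differed by -0.06 for Reep1 (-0.65 to 0.52) and by -0.30 for Ric8b (-0.57 to -0.03). For Ric8b this was -0.37 in library 2 (-0.73 to -0.02) and -0.19 in library 1 (-0.62 to 0.23). No member reached 2-fold between classes, and 12.8% of 9447 genes did in either direction.

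**Figure D4:**
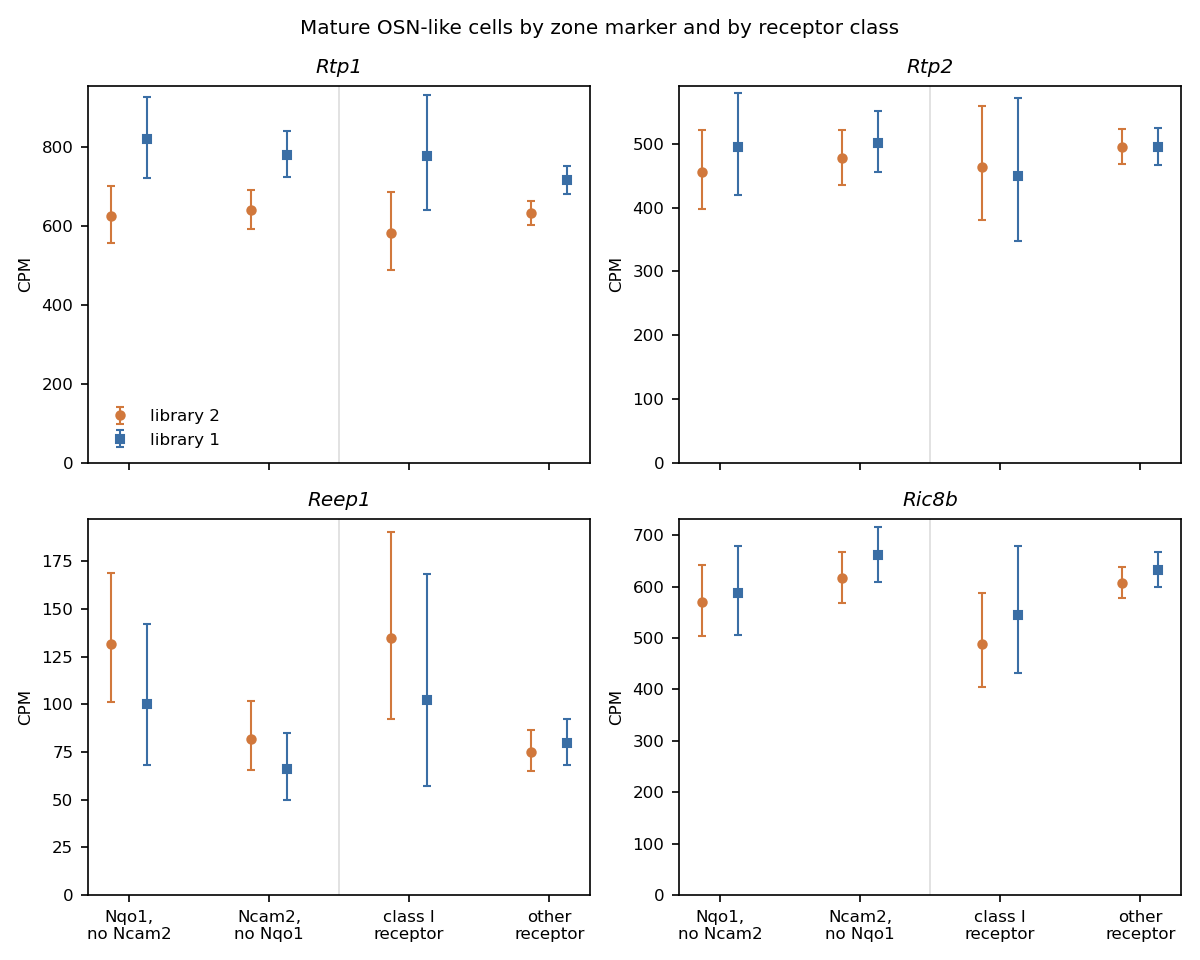
CPM of each member in mature OSN-like cells split by zone marker (Nqo1 without Ncam2 left of Ncam2 without Nqo1) and by assigned receptor (class I left of other), library 2 left of library 1, with 95% counting intervals. Reep1 is higher in Nqo1 cells (119 CPM) than in Ncam2 cells (74.5 CPM), and for Reep1 the intervals of the libraries overlap in each pair of points.

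Between the libraries, the 4 genes were close in mature OSN-like cells. Library 2 over library 1 was -0.20 for Rtp1 (-0.29 to -0.10), -0.01 for Rtp2 (-0.12 to 0.10), -0.01 for Reep1 (-0.29 to 0.26) and -0.10 for Ric8b (-0.19 to 0.00). None was 2-fold different, and 5.43% of 9158 genes were, in either direction. Within cluster 1 the Rtp1 ratio was -0.14 (-0.29 to 0.02) and within cluster 4 it was -0.13 (-0.30 to 0.04). Ric8b was -0.07 within cluster 1 and -0.26 within cluster 4 (-0.45 to -0.07). The clusters hold the libraries in opposite proportions, and cluster 4 over cluster 1 was 0.19 for Rtp1 (0.10 to 0.28). The summed mature OSN markers, all 12 of them detected, were 30084 CPM in library 2 and 35120 CPM in library 1, and their part in the ratios was not tested.

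In immature OSN-like cells the libraries differed more. Library 2 over library 1 was 0.39 for Rtp1, 0.41 for Rtp2 and 0.38 for Ric8b, and -1.29 for Reep1 (-2.16 to -0.54), the 1 member past 2-fold, as were 10.2% of 9622 genes in either direction. Without the 3 cells of library 1 named above, Reep1 turned to 1.02 (-0.29 to 2.86), Rtp1 to 0.19 (-0.11 to 0.50), Rtp2 to 0.20 (-0.13 to 0.55) and Ric8b to 0.27 (-0.24 to 0.80). Sustentacular markers summed to 415 CPM in library 2 and 187 CPM in library 1 in these cells, and their part was not tested. None of the genes of the 7 lists differed 2-fold between the libraries in mature cells.

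Outside the neuronal lineage few UMIs of Rtp1 and Rtp2 were counted, and they were set against the number that stray RNA of mature neurons, measured by Omp, would bring. Sustentacular-like cells (1824) held 107 UMIs of Rtp1 and 81 of Rtp2, where their Omp UMIs at the ratio of mature cells give 104 and 76.1. HBC-like cells (horizontal basal cells, the reserve stem cells) held 17 of Rtp1 and 22 of Rtp2, where that measure gives 9.24 and 6.78. Ionocyte-like microvillous cells held 5 of Rtp1 and 13 of Rtp2, where it gives 11.3 and 8.27. Reep1 was far above that measure: 568 UMIs against 12.4 in sustentacular-like cells, and 133 against 1.11 in HBC-like cells. Its level was 37.5 CPM in sustentacular-like cells (41.9 in library 2 and 30.8 in library 1) and 35.4 CPM in HBC-like cells (26.8 in library 2 and 47.9 in library 1). Ric8b lay between, with 219 UMIs against 93.8 in sustentacular-like cells and 47 against 8.36 in HBC-like cells. It had 37 against 15.3 in gland-like cells and 10 against 1.83 in B lineage-like cells. Olfactory ensheathing-like cells went the other way, with 3 against 5.27. In the order of levels over clusters of 30 or more cells, Rtp1 was highest in cluster 4 (726 CPM), then in cluster 1 (635) and cluster 9 (423), with no overlap of intervals between neighbours. The mature clusters overlapped for Rtp2 (500 in cluster 1, 488 in cluster 4) and Ric8b (612 and 607). For Reep1 the HBC-like cluster 5 (50.6 CPM) came next after both mature clusters, and its interval overlapped that of cluster 9 (39.7).

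**Figure D5:**
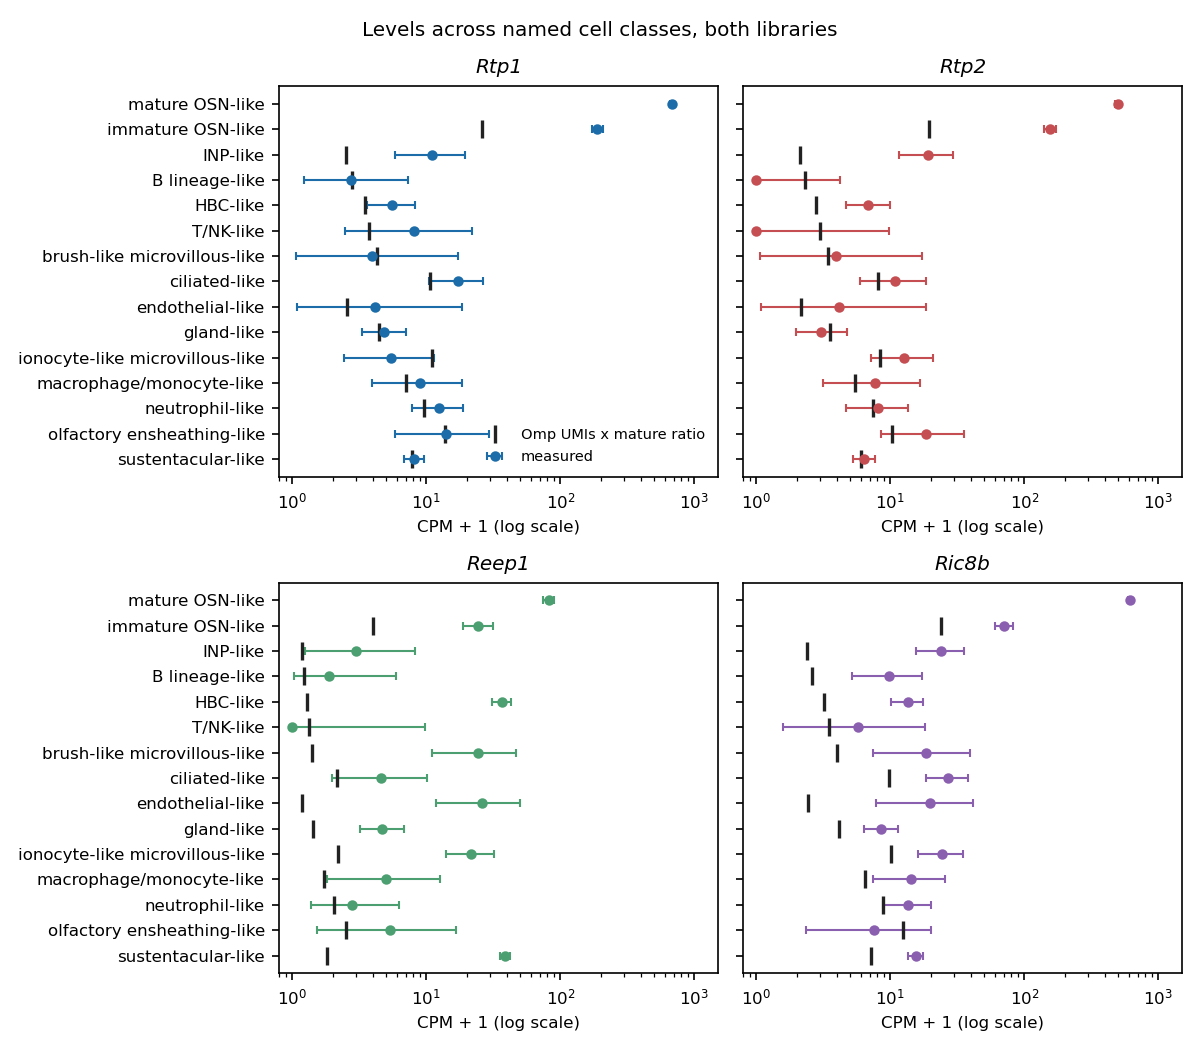
Level of each member (CPM + 1, log axis) in named cell classes, both libraries, with 95% counting intervals. Black bars mark the level that the Omp UMIs of a class would bring at the mature ratio: Rtp1 and Rtp2 lie at the bar in sustentacular-like cells, while Reep1 (37.5 CPM) lies far to its right.

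The genes with the most similar pattern were found over 34 clusters of 30 or more cells, by Pearson's r of log2(CPM + 1) among 9793 genes, as a description of clusters that share libraries and free RNA. For Rtp1 they were Cnga2 (r = 0.956), Clgn, Gnal, Faim2 and Eef1a2, and for Rtp2 Pcolce2 (r = 0.961), Flrt1, Clgn, Rufy3 and Snap25. Cnga2 encodes the main subunit of the olfactory cyclic nucleotide-gated channel, and Clgn (calmegin) an ER chaperone. For Ric8b they were Nsg1 (r = 0.930), Cngb1, Cntn4, Cend1 and Gnb1. For Reep1 they were Nqo1 (r = 0.871), Kcna5, Ormdl3, Mpp2 and Wdsub1, and Nqo1 is also the dorsal marker used above. Among the members, r was 0.904 between Rtp1 and Rtp2 and 0.884 between Rtp1 and Ric8b, and Reep1 had 0.636 with Rtp1, 0.636 with Rtp2 and 0.698 with Ric8b.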

How the data were processed

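Cells came from both sides of the epithelium of a mouse, 1 library per side. The deposited matrix holds UMI counts per gene and barcode, made by the authors with Cell Ranger 3.0.2 on mm10, per the submitters' processing notes. Whether depth was equalised when the libraries were joined, and how reads matching both Rtp1 and Rtp2 were counted, is not stated by any source used. The matrix lists 31053 genes, with 49221001 UMIs over 7990 barcodes of library 2 and 27212821 UMIs over 4501 barcodes of library 1. Cells were kept from 1000 UMIs and 500 genes upwards and up to 10% mitochondrial UMIs, which removed 2724 barcodes of library 2 and 1469 of library 1. Cells were clustered (scanpy 1.11.5 for doublet scores, leidenalg 0.10.2, resolution 1.0) on 30 principal components of 2000 variable genes, without Olfr, mitochondrial, Xist and the 4 member genes. A cluster was named when at least 3 markers of a single class were among its 50 leading genes, more than of any other class, and no other class had more markers among its 10 leading genes. The second condition left clusters 6, 12 and 22 unnamed. A cluster sharing at least 2 of its 10 leading genes with a larger named cluster of another class was left unnamed, which applied to cluster 8 (297 cells). That rule was added after the clusters were seen. Scrublet called 7 of 8298 cells as doublets (0.0844%), below 0.5%, so its calls were not used and no doublets were removed.

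Levels are UMIs of a group over all its UMIs, with exact Poisson intervals. Shares of cells have Clopper-Pearson intervals, and log2 differences (pseudocount 1 CPM) exact conditional ones. With 1 library per side no test was run. A gene is counted as higher or lower at 2-fold or more, among genes at 10 CPM or more in either group. Shares were compared after thinning cells to 2000 UMIs, which left out 19 mature, 27 immature and 11 cluster 12 cells. A receptor was assigned to a cell with at least 3 UMIs of it, making up at least 66.7% of its Olfr UMIs. The text names the 4 members, genes of the fixed lists at 10 CPM or more and the 5 genes most similar to each member. Cells were ranked along the lineage without cluster 6. The scripts were tested on simulated data. The members, lists and comparisons were chosen with earlier results of these data known. Gene positions and exons are from GENCODE M21, whose identifiers matched 31011 of the 31053 genes, and promoter windows from RefSeq.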

Additional observations from a re-analysis of the deposited data

Results flagged for a closer look

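Rtp1 was flagged because the ratio of the libraries had opposite signs at different stages, each with a counting interval that leaves out 0. Library 2 over library 1 was -0.20 (log2) in mature OSN-like cells and 0.39 in immature OSN-like cells. The difference between these ratios was not tested, as there is 1 library of each kind. Without the 3 immature cells rich in Reep1, the immature ratio of Rtp1 was 0.19, with an interval from -0.11 to 0.50.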

How the results depend on the processing

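No paired analysis was possible because each side is a single library and no test was run. Of 164 alternative values, 121 lay within the counting interval of the value reported. For mature over immature, 27 lay within it and 29 outside. For immature over INP-like, 47 lay within and 9 outside, and for the mature library ratio 47 and 5. No value whose interval left out 0 changed sign. The mature library ratios of Rtp2, Reep1 and Ric8b, whose intervals held 0, took both signs, between -0.20 and 0.08, -0.12 and 0.30, and -0.26 and 0.04. All stage differences stayed at 2-fold or more, and no library ratio reached it. The cause of the moves was not tested.

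Mature over immature (log2), in the order Rtp1, Rtp2, Reep1, Ric8b, gave 2.15, 2.15, 1.12 and 2.63 without a cell filter, and 2.23, 2.27, 1.36 and 2.77 from 2500 UMIs per cell. Marker gates gave 2.20, 2.03, 2.43 and 3.78. Library 1 alone gave 2.22, 1.96, 1.03 and 3.43. With cluster 8 kept (added after seeing the data), the values were 2.23, 2.26, 1.26 and 2.81. At resolution 2.0, Rtp1 was 2.14, Rtp2 1.96 and Reep1 1.27. With at most 5% mitochondrial UMIs, Rtp2 was 1.52 and Reep1 2.49. Library 2 alone gave 1.63 for Rtp1 and 2.31 for Reep1. Reep1 was 2.31 after thinning and 2.55 without the 3 cells (added after seeing the data).

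Immature over INP-like, Rtp1 was 2.34 without a cell filter, 3.22 at resolution 2.0 and 3.30 with a pseudocount of 10 CPM. Rtp2 was 1.40 without a filter, 2.40 from 2500 UMIs, 3.94 with at most 5% mitochondrial UMIs, 2.12 at resolution 2.0 and 3.90 after thinning. Reep1 was 1.48 with the larger pseudocount.

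Library 2 over library 1 in mature cells was -0.06 for Rtp1 and 0.04 for Ric8b at resolution 2.0. Within cluster 4 (added after seeing the data) it was -0.20 for Rtp2, 0.30 for Reep1 and -0.26 for Ric8b. Depth limits Reep1 most: 2 UMIs in INP-like cells and 57 in immature cells carry its early values.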
